A study of Mus musculus with 4 samples.

Results

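The 10 genes described here, Pdhb, Dlat, Acss1, Cs, Slc25a1, Acly, Acss2, Crat, Slc33a1 and Acaca, make, move or use acetyl-CoA, the donor of the acetyl group that HAT1 places on newly made histone H4. Their accessible sites were all sites that overlapped the body of 1 of these genes, or lay within 10 kb of 1 of its transcription start sites (TSSs), in the GENCODE annotation of mm10. There were 33 such sites of 82325 in the table, from 1 site at Pdhb to 7 at Acaca, and no site belonged to 2 of the genes. The assay was ATAC-Seq, where a transposase, Tn5, inserts sequencing adapters into DNA that is free of nucleosomes, so that read number follows accessibility. The cells were lines of mouse embryonic fibroblasts (MEFs) on a C57bl6 background, taken from mid-gestation embryos, immortalized with the SV40 T antigen and grown without further treatment. The 2 WT lines were HAT1+/+ and the 2 KO lines were HAT1-/-. All 4 lines carry the T antigen, and whether a line is a single clone was not stated. The p-values therefore measure the spread between 2 lines per genotype, with 1 library from each.

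Most acetyl-CoA is formed in mitochondria, from pyruvate by the pyruvate dehydrogenase complex, from fatty acids, and from acetate. It cannot cross the inner membrane, so it is condensed to citrate, exported, and cleaved again in the cytosol and nucleus by ATP-citrate lyase. A second nuclear and cytosolic source ligates acetate to coenzyme A, and acetate released by histone deacetylases can be recycled in this way. Histone acetyltransferases draw on this nuclear and cytosolic pool, while lipid synthesis competes for it.

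No site of these genes differed between the genotypes by the threshold used here, an unadjusted p under 0.01 together with a 2-fold change or more (1 on the log2 scale). The study gave these limits for its primary MEFs, without saying whether p was adjusted, and none for the immortalized lines. In the limma fit over the whole table, 0 of the 33 sites were called, against 0.373% of all sites (0.302% lower and 0.0705% higher in KO). None of the 33 had an unadjusted p under 0.05, against 3.13% of all sites, and no site of the whole table had a limma adjusted p under 0.05. The lowest unadjusted limma p among the 33 was 0.157, and the adjusted p was 1 for each of them. The largest differences in either direction were a fold change of -0.77 (log2, KO against WT) at an intronic site of Acaca and 0.39 at an intronic site of Slc33a1. The level varied between the genes. Per kb of site, the promoter sites of 6 genes lay above the median promoter site of protein-coding genes, those of Dlat and Slc25a1 just under it, and those of Slc33a1 and Acss1 well under it. By value per site, without the division by length, Dlat and Slc25a1 lay above it.

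The values are normalized counts, that is, read counts scaled by the authors with 1 factor for each library and then rounded. The approximate depth behind them, estimated from the pattern of whole numbers among low values, was 9430000 and 11420000 reads in sites in the WT libraries and 7830000 and 5680000 in the KO libraries. All 9 listed fibroblast genes, Col1a1 and Vim among them, had a promoter site, with means from 111 to 866 normalized counts. Of the 14 listed markers of other cell types, 7 had one, from 20.5 to 180. The targeted gene gave no check of the labels: the promoter site of Hat1 had 390 and 384 normalized counts in WT and 438 and 368 in KO, and what part of the gene the KO lines lack was not given.

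The sequences just upstream of 6 starts are shown because they span the range of levels. Acly and Acss2 had strong promoter sites, Acss1 a weak one, and the annotated RefSeq starts of Slc33a1 and Acaca no site, while another start of Acaca lay in its strongest site. Each run holds the 250 bases before the start, 5' to 3' on the gene's strand, from RefSeq (GRCm38.p6, the assembly named mm10). That at the strongest Acaca site was read from the genome at a GENCODE start. Capitals mark matches, on either strand, to GGGCGG (SP/KLF), CCAAT (NFY), CACGTG (E-box) and the palindromic NRF1 motif. The windows are Acly at chr11:100528001-100528250 (minus strand), Acss2 at chr2:155517793-155518042 (plus), Acaca at chr11:84179581-84179830 and chr11:84195188-84195437 (both plus), Acss1 at chr2:150668241-150668490 (minus) and Slc33a1 at chr3:63964734-63964983 (minus).
Acly: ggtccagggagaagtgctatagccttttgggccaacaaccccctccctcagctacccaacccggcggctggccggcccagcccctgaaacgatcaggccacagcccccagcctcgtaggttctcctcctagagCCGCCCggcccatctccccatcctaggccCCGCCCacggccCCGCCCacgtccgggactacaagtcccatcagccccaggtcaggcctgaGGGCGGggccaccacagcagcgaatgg
Acss2: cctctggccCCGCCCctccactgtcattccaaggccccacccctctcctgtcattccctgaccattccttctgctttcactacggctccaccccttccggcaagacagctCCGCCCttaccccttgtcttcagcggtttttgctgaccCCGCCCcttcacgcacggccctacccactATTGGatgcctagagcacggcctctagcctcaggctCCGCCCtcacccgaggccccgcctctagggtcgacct
Acaca, start in the strongest site: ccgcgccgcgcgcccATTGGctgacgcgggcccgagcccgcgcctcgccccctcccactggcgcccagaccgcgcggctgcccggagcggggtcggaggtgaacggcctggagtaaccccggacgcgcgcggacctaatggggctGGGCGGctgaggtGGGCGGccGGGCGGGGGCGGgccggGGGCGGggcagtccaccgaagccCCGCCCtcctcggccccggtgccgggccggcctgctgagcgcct
Acaca, RefSeq start: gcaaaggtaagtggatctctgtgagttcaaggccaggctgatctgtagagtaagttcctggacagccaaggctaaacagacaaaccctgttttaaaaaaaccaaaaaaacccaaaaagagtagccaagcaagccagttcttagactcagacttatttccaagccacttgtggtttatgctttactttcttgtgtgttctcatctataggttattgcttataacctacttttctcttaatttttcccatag
Acss1: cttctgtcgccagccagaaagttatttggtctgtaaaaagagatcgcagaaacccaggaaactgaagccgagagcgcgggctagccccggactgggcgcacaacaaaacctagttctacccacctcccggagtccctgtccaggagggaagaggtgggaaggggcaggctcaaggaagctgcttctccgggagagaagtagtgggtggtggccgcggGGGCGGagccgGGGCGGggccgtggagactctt
Slc33a1: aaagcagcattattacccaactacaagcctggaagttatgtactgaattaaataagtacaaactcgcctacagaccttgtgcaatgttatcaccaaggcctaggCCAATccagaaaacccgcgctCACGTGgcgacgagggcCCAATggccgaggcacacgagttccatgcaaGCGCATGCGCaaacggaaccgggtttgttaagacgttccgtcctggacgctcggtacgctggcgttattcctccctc

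The windows differed widely in composition. The Acaca window in the strongest site had 81.6% GC and 38 CpG dinucleotides, and that at the RefSeq start had 39.2% and 0. The Acss1 window had 15 CpGs, as many as that of Dlat, and the Slc33a1 window had 18, more than the 14 of Acly, although no listed site covered it. Over the 11 windows examined, which add Pdhb, Dlat, Cs, Slc25a1 and Crat, the median was 15 CpGs, against 10 over 21237 RefSeq promoters of protein-coding genes. GGGCGG was found in 8 of the 11 windows, against 42.6% of those promoters, and CCAAT in 6, against 35.4%. CACGTG was in the windows of Slc25a1 and Slc33a1 (6.63% of all promoters), and the NRF1 motif was in that of Slc33a1 (1.07%). ACTTCCGG (ETS), TCACNCCAC (SREBP) and TATAAA, found in 3.80%, 1.01% and 11.6% of promoters, were in none of the 11. These counts describe the letters in the windows and are not evidence of binding.

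Promoter sites were compared between genes per length. For each gene the promoter site was the strongest of its sites within 1 kb of the start of a protein-coding transcript. The mean over 4 libraries was 643 ± 79.5 normalized counts per kb at Pdhb (SD, n = 4), 561 ± 27.0 at Acss2 (SD, n = 4), 445 ± 19.3 at Acaca (SD, n = 4), 395 ± 27.2 at Acly (SD, n = 4) and 375 ± 38.4 at Cs (SD, n = 4). It was 324 ± 9.54 at Crat (SD, n = 4), 249 ± 19.1 at Dlat (SD, n = 4), 248 ± 16.6 at Slc25a1 (SD, n = 4), 151 ± 20.2 at Slc33a1 (SD, n = 4) and 82.6 ± 35.7 at Acss1 (SD, n = 4). In this order the library values of neighbours overlapped, except between Acss2 and Acaca, between Crat and Dlat, and between Slc25a1 and Slc33a1. Among the promoter sites of all protein-coding genes, the per-kb level of Pdhb lay at percentile 97.4, that of Slc33a1 at 21.0 and that of Acss1 at 5.47. The genes whose products make or use cytosolic acetyl-CoA, Acss2, Acaca and Acly, lay at percentiles 94.9, 86.1 and 79.5. Cs lay at 76.4 and Crat at 65.6, and Dlat and Slc25a1 lay under the middle at 45.6 and 45.5. These places depended on the division by length. By value per site, Dlat and Slc25a1 lay above the middle at 62.5 and 66.1, Crat at 87.0, Acss1 at 12.9 and Slc33a1 at 6.86.

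**Figure D1:**
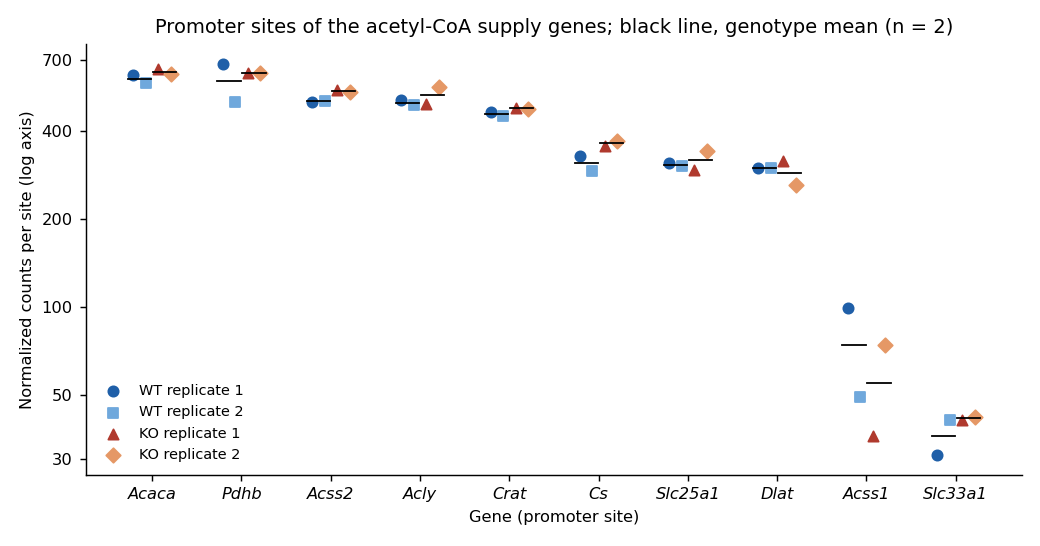
Normalized counts (log axis) at the promoter site of each of the 10 genes, with 1 point per library and a black line at each genotype mean (n = 2). The 8 genes from Acaca to Dlat sit between 262 and 682, and Acss1 and Slc33a1 between 31 and 99.

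The genes that form acetyl-CoA inside mitochondria were taken first. Pdhb encodes the beta subunit of the decarboxylating enzyme of the pyruvate dehydrogenase complex, and its only site lay over its start on chromosome 14 (8172727 to 8173679). It had 682 and 505 normalized counts in WT and 633 in each KO library, so both KO values lay between the WT values. The fold change was 0.11 (SE 0.15, 95% interval -0.26 to 0.48). Sites on chromosome 14 stood higher in WT replicate 1 than in the other libraries, by a median of 0.28 above the mean of all 4, and with each library centred on its chromosome median the Pdhb value was 0.32. That value had an unadjusted p under 0.05 but was not called.

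Dlat encodes the acetyltransferase core of the same complex, which transfers the acetyl group to coenzyme A. Its promoter site (chromosome 9, 50658854 to 50660033) had 300 and 298 normalized counts in WT and 315 and 262 in KO. The KO lines differed from each other by 0.26 on the log2 scale and the genotypes by 0.06, and the fold change was -0.06 (SE 0.17). An intronic site of Dlat had 52 and 51 normalized counts in WT and 65 and 35 in KO, so there too the KO values lay on both sides of the WT values.

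Acss1 is the mitochondrial acetyl-CoA synthetase, which activates acetate. Its promoter site (chromosome 2, 150667725 to 150668505) had 99 and 49 normalized counts in WT and 36 and 74 in KO. The high libraries were WT replicate 1 and KO replicate 2, and the lines within each genotype differed by at least 1.00 on the log2 scale, more than the fold change of -0.42 (SE 0.51). The value was 0.075 without WT replicate 1 and 0.085 without KO replicate 1, so the sign changed when either was left out. The site 6497 bp from the nearest Acss1 start, which was not named by the rule, showed the same order, with 35 and 20 in WT and 15 and 35 in KO. The third Acss1 site had 27 and 20 in WT and 20 and 23 in KO. The titles of the lines behind WT replicate 1 and KO replicate 2 share the number 643, and what this number marks was not stated. These 2 lines had 99 in WT and 74 in KO at the promoter site, and 35 each at the site 6497 bp away. No pairing of lines was assumed.

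Cs and Slc25a1 carry mitochondrial acetyl units toward the cytosol. Cs is citrate synthase, and its promoter site (chromosome 10, 128337360 to 128338258) had 328 and 293 normalized counts in WT and 357 and 371 in KO. Both KO libraries were above both WT libraries, and the fold change of 0.23 (SE 0.15, 95% interval -0.12 to 0.58) was larger than the difference within either genotype but did not pass the test. A second strong site in a Cs intron, 6796 bp from the nearest Cs start, had 230 and 309 in WT and 275 and 254 in KO. Its fold change was -0.01 (SE 0.20), and the WT lines lay on both sides of the KO lines.

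Slc25a1 is the mitochondrial citrate carrier. The promoter site (chromosome 16, 17927796 to 17929055) had 310 and 304 normalized counts in WT and 295 and 343 in KO, with a fold change of 0.05 (SE 0.16). Its second site lay downstream of the gene and over the start of AA914427. It had 312 and 317 normalized counts in WT and 277 and 373 in KO, and its fold change was 0.03 (SE 0.19). At both sites the WT lines were nearly equal and the KO lines fell on both sides of them.

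Acly and Acss2 make acetyl-CoA where histones are acetylated. Acly is ATP-citrate lyase, and its promoter site (chromosome 11, 100527025 to 100528330) had 512 and 490 normalized counts in WT and 494 and 567 in KO, a fold change of 0.08 (SE 0.12, 95% interval -0.21 to 0.37). An intronic site 775 bp from another annotated Acly start had 85 and 72 in WT and 144 and 36 in KO. The KO lines differed there by 1.97 on the log2 scale, the widest gap within a genotype among the 33 sites. Its fold change was -0.11 (SE 0.63), with 0.87 without KO replicate 2 and -1.10 without KO replicate 1. This site was singled out after its values were seen. The site listed for Acly over the start of the neighbouring gene Klhl11 had 206 and 198 in WT and 206 and 241 in KO, with a fold change of 0.14 (SE 0.19).

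Acss2 is the nuclear and cytosolic acetyl-CoA synthetase. Its promoter site (chromosome 2, 155517633 to 155518574) had 504 and 509 normalized counts in WT and 554 and 546 in KO, and it also held a start of Ggt7, on the opposite strand. Both KO values were above both WT values and the lines of a genotype were close, yet the fold change was only 0.12 (SE 0.10, 95% interval -0.13 to 0.36). Upstream, 5057 bp from the start, a weaker site went the other way, with 81 and 94 in WT and 62 and 74 in KO, a fold change of -0.36 (SE 0.30, 95% interval -1.09 to 0.37). The 3 other sites of Acss2 had genotypes that overlapped.

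Crat and Slc33a1 move acetyl groups between compartments. Crat is carnitine acetyltransferase, which exchanges acetyl-CoA and acetylcarnitine, and its promoter site (chromosome 2, 30415196 to 30416641) is shared with the start of Ptpa. It had 466 and 450 normalized counts in WT and 480 and 478 in KO, a fold change of 0.06 (SE 0.11). A site 3463 bp upstream had 68 in each WT library and 48 and 53 in KO, with a fold change of -0.42 (SE 0.31, 95% interval -1.18 to 0.33). The promoter value was thus slightly higher and the upstream value lower in both KO lines, and neither passed the test.

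Slc33a1 is the acetyl-CoA transporter of the endoplasmic reticulum membrane. None of its listed sites covered the annotated RefSeq start. The site nearest a coding start (chromosome 3, 63963480 to 63963736), 636 bp away and over the start of the antisense gene Gm26850, had 31 and 41 normalized counts in WT and 41 and 42 in KO, with a fold change of 0.21 (SE 0.37). An intronic site had 69 and 74 in WT and 117 and 75 in KO. Its fold change of 0.39 (SE 0.33) rested on KO replicate 1, since it was 0.069 without that library.

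Acaca, acetyl-CoA carboxylase, converts acetyl-CoA to malonyl-CoA and so commits it to fatty acid synthesis. Its sites near annotated starts differed in level. The strongest site (chromosome 11, 84179173 to 84180570) had 625 and 586 normalized counts in WT and 651 and 629 in KO. The site at the first start of the gene, which also holds the start of Tada2a, had 235 and 195 in WT and 228 and 211 in KO. The site 289 bp from the RefSeq start had 18 and 23 in WT and 23 and 21 in KO, and this order of levels was the same in all 4 libraries. Fold changes were 0.08 (SE 0.09, 95% interval -0.15 to 0.31) at the strongest site and 0.03 (SE 0.20) at the first start. Between them, an intronic site with 25 and 41 in WT and 16 and 21 in KO had the fold change of -0.77 (SE 0.48, 95% interval -1.94 to 0.39). It too was named after its values were seen, and its mean was only 25.8 normalized counts. The value was -1.12 without WT replicate 1 and -0.43 without WT replicate 2.

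**Figure D2:**
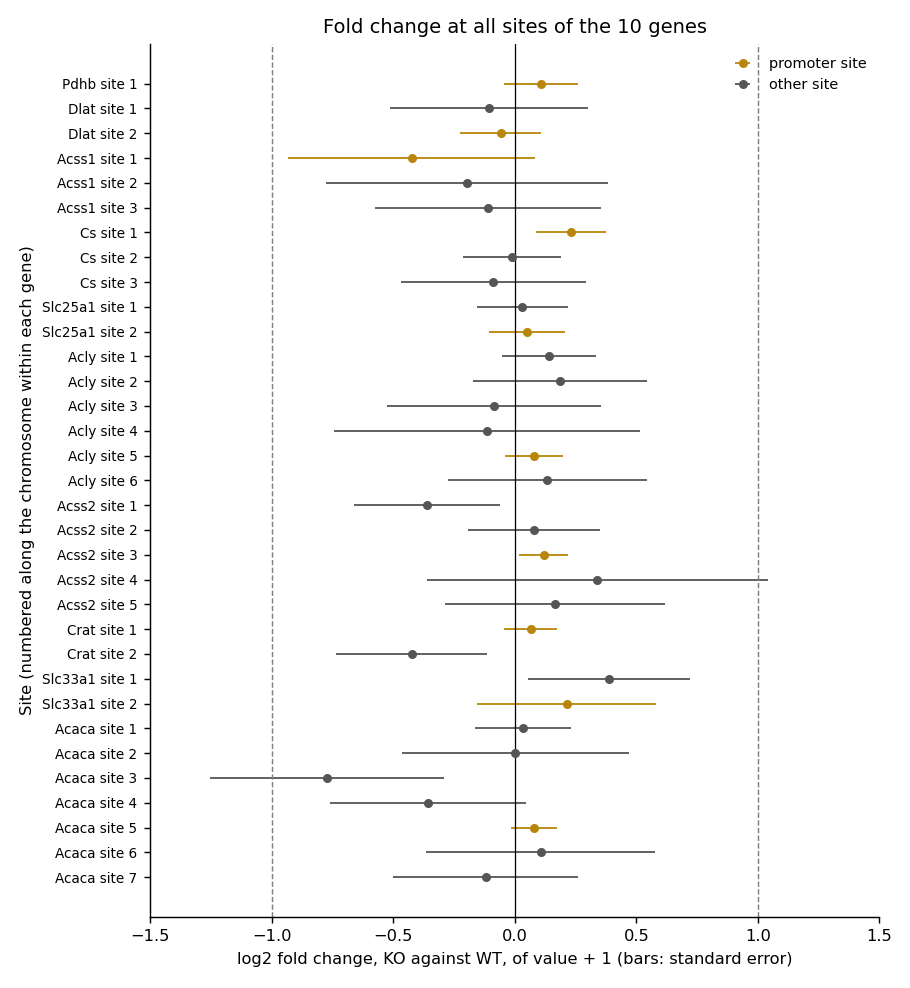
log2 fold change of KO against WT at each of the 33 sites, with bars of 1 standard error from limma and dashed lines at the fold threshold of -1 and 1. Points run from -0.77 to 0.39, and promoter sites other than those of Acss1 and Slc33a1 have the shorter bars.

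Over the 33 sites the median fold change was 0.03, with 19 values above 0 and 14 below, against a median of 0.01 over all sites. The medians of the libraries over these sites, each relative to the mean of the 4, were 0.041 and -0.071 in WT and 0.051 and 0.015 in KO. Their difference of 0.05 was smaller than the pooled SD of 0.059 between lines (exact permutation test, two-sided, p = 0.667, and with 2 against 2 this test cannot give less than 0.333). Both KO libraries lay above both WT libraries at 5 of the 33 sites, against 14.6% of all sites, and below them at 4, against 14.3%. Both shares are near the background. At 27 of the 33 sites (81.8%) the lines of 1 genotype differed from each other by more than the genotypes did, and this held at 81.1% of all sites. The larger the signal, the narrower the interval: 8 of the 10 promoter sites had a 95% interval that left out a 2-fold change in either direction, against 5 of the 23 other sites.

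**Figure D3:**
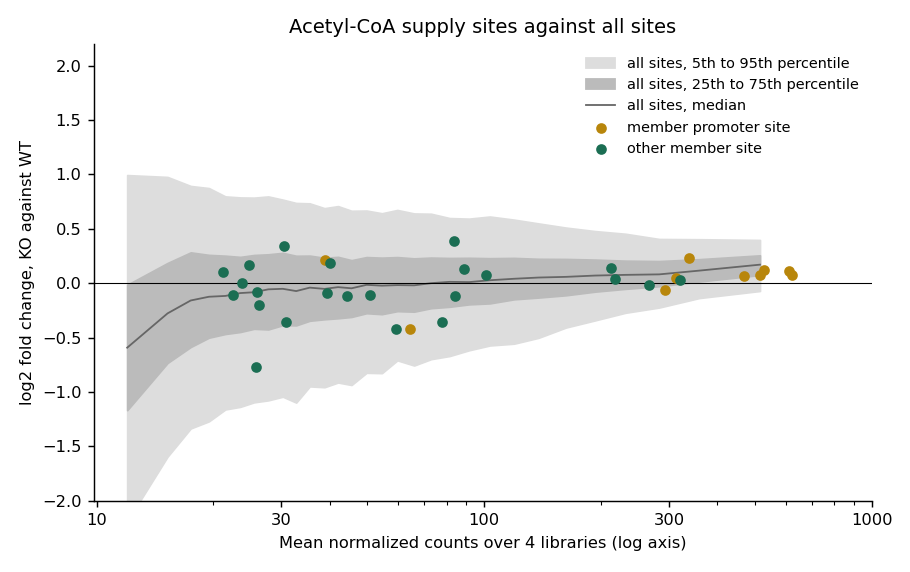
log2 fold change of KO against WT over mean normalized counts (log axis) for the 33 sites, with grey bands for all sites in 30 bins of signal. All 33 sites lie inside the band from the 5th to the 95th percentile of sites of like signal.

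Of the 10 promoter sites 8 had a fold change above 0, with a median of 0.08, and at 4 of them (Cs, Acss2, Crat and Acaca) both KO libraries were above both WT libraries, against 21.9% of the promoter sites of protein-coding genes, whose median was 0.03. The 23 other sites had a median of -0.01. Over the whole table fold changes were higher at stronger sites, with a median of 0.060 at all sites at or above the median value of 52 and -0.098 below it, and the members followed with 0.065 over 19 sites and -0.087 over 14. The 10 promoter sites had a median value of 403 normalized counts. In the bins of all sites with median values of 359 and 515, the median fold change was 0.12 and 0.17. Both were above the 0.08 of the promoter sites as a set, but their mean values ran from 38.8 at Slc33a1 to 623 at Acaca. Against the median of the bin nearest in signal, Cs (0.23 against 0.12) and Slc33a1 (0.21 against -0.052) stood above it. The other promoter sites were below the median of their nearest bin. The signs at promoter sites depended on the scaling, since with quantile normalization 6 of the 8 positive values became negative, and those of Cs and Slc33a1 did not.

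**Figure D4:**
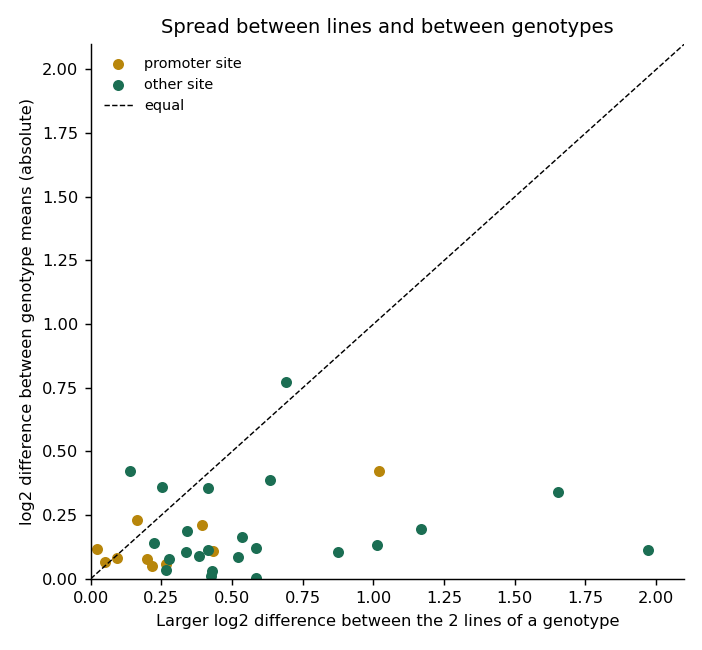
Absolute log2 difference between genotype means against the larger log2 difference between the 2 lines of a genotype, for the 33 sites, with a dashed line where both are equal. Of the 33 points 27 lie below the line, and the farthest to the right is the Acly site at 1.97.

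Summed over the sites of each gene, none of the 10 genes was called, against 0.299% of 17052 protein-coding genes with a site. The lowest unadjusted limma p among them was 0.235 and the lowest adjusted p was 0.928. The sums took in sites over the starts of neighbouring genes, such as AA914427, Klhl11 and Tada2a. The promoter site gave from 31.6% of the sum at Slc33a1 to 100% at Pdhb. The extremes were Slc33a1, with sums of 100 and 115 normalized counts in WT and 158 and 117 in KO and a fold change of 0.34 (SE 0.26), and Acss1, with 161 and 89 in WT and 71 and 132 in KO and -0.30 (SE 0.41). Both moved with single libraries, Slc33a1 to 0.12 without KO replicate 1 and 0.55 without KO replicate 2, and Acss1 to 0.12 without WT replicate 1 and -0.75 without KO replicate 2. For the other 8 genes the fold change lay between -0.06 and 0.12. Acly had sums of 949 and 908 in WT and 1039 and 975 in KO, and Acss2 had 757 and 730 in WT and 781 in each KO library. Both KO sums were above both WT sums in 4 genes, Cs, Acly, Acss2 and Slc33a1, against 23.0% of all genes, and in no gene were both below, against 11.7%. At each single site of Acly, however, the genotypes overlapped, and the nearest sums of Slc33a1 were 115 in WT and 117 in KO.

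The study asked where HAT1 loss lowers accessibility over long stretches, and 1 stretch around each promoter site was examined here. Runs of 25 consecutive sites were averaged, and a mean under -0.58 was taken as the cutoff. The study set both on its primary MEFs and then joined nearby stretches into domains. Here they were applied to the limma fold changes of the immortalized lines without joining, and were not set against the study's own domains. The 25 sites centred on each promoter site gave means from -0.17 at Acss1 to 0.046 at Acly, so 0 of the 10 windows were under the cutoff, against 3.42% of the windows of all sites. The windows of Acss1 and Slc33a1 were the widest, at 2099 and 1523 kb, where the other 8 spanned 229 to 605 kb, so both weakly accessible genes sat among sparser sites. The Acss1 window was -0.45 without KO replicate 2 and 0.11 without KO replicate 1.

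Other genes of acetyl-CoA metabolism were read from the same fit per gene. Of 57 listed genes, 56 had a site, 0 were called in either direction and none had an adjusted p under 0.05. Their fold changes ran from -0.40 to 0.35 with a median of 0.10, against 0.05 over all genes, and 41 of 56 (73.2%) were above 0, against 60.1% of all genes. Both KO sums were above both WT sums in 20 of 56 (35.7%), against 23.0% of all genes, and below in 0, against 11.7%. With equal library totals 33 of the 56 (58.9%) were above 0, against 44.9% of all genes, and with quantile normalization 24 (42.9%), against 43.5%. By the share above 0, the list thus stood above all genes in the first of these scalings and level with them in the other. It was not set beside genes of like signal, although fold changes were higher at stronger sites. The shares without overlap were read from the deposited values only.

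Of the 56, 3 (5.36%) had an unadjusted limma p under 0.05, against 3.94% of all genes. Hmgcs1, the cytosolic synthase that takes acetyl-CoA toward cholesterol, had sums of 699 and 707 normalized counts in WT and 842 and 951 in KO, a fold change of 0.35 (SE 0.12). Pcx, pyruvate carboxylase, had 1281 and 1321 in WT and 1843 and 1499 in KO, also 0.35 (SE 0.14). Pcx lies on chromosome 19, whose sites stood a median of 0.35 above the mean of the 4 libraries in KO replicate 1. Mdh1, cytosolic malate dehydrogenase, had 628 and 648 in WT and 737 and 859 in KO, with 0.32 (SE 0.13). The limma adjusted p of each was 0.928.

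The lowest fold changes in the list did not pass the test. Pdk4, a kinase that switches off the pyruvate dehydrogenase complex, had 271 and 132 normalized counts in WT and 251 and 81 in KO, with a fold change of -0.40 (SE 0.56) that was less than the spread between lines. Idh2, mitochondrial isocitrate dehydrogenase, had 550 and 678 in WT and 503 and 596 in KO, with -0.16 (SE 0.16). By role, both KO sums were above both WT sums in 6 of 8 citrate and NADPH exchange genes and in 0 of 3 sirtuins, the ends of a range in which the other 7 roles had 20 to 50%, against 23.0% of all genes.

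**Figure D5:**
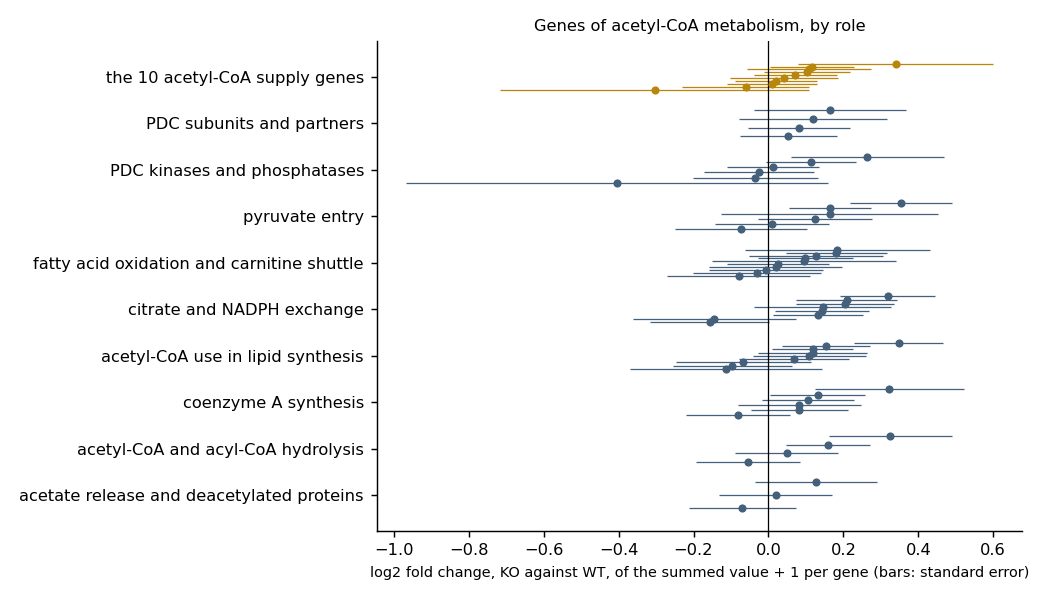
log2 fold change of KO against WT per gene, from values summed over its sites, with bars of 1 standard error, for the 10 genes and for 56 other genes of acetyl-CoA metabolism by role (PDC, pyruvate dehydrogenase complex). Values run from -0.40 to 0.35, and none of the genes was called.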

How the data were processed

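ATAC-Seq was performed on 4 libraries, 2 from WT and 2 from KO immortalized MEF lines. Per the study's methods and the submitters' processing notes, paired-end reads were aligned to mm10 with BWA 0.7.12, peaks were called with MACS2 2.1.0, and differential occupancy was tested with DESeq2. The deposited values were treated as a score, since the authors had scaled the counts of each merged region by library and rounded them. Read filters, the treatment of reads matching several places and any shift for the Tn5 offset were not given in the sources used here. The deposited table also holds the authors' log2 fold changes and p-values (4 columns), which were not used. Replicate numbers follow accession order and are names only.

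The count test of the study was not rerun, since scaled values are not counts. Values were tested with limma 3.58.1 in R 4.3.3, with an intensity trend, on log2(value + 1) over all 82325 sites, and on sums per gene over 17052 protein-coding genes, both with Benjamini-Hochberg adjustment. Fold changes on this scale understate the change at low sites. No site was filtered out. Many WT values cannot be turned back into whole reads, because more than 1 read count shares the rounded value. By the estimated scaling, 70.1% of low values in WT replicate 1 and 42.7% in WT replicate 2 came from 1 read count. The members and lists were chosen with earlier results of these data known. All 10 genes were named. Beyond the promoter sites, the rule named the 3 largest rises and falls among member sites at or above the median value and the 3 strongest sites outside promoters. In the pathway list it named the 2 largest rises and falls, and Mdh1 was added after its value was seen. Intronic sites of Dlat, Acly and Acaca and an upstream site of Acss1 were also described, outside the rule. The models were tested on simulated data, where 200 sites or genes at or above the median value were given a log2 change of 2. Of these, 192 sites and 200 genes were called in the right direction. The same rule also called 657 unchanged sites and 52 unchanged genes, against 307 sites and 51 genes called in the real data. The simulation drew normal values with the same spread for all features of like signal, which real sites need not have. Its counts therefore do not estimate how many real calls were false. A 2-fold change was not simulated. Sites were annotated with GENCODE vM21, and Python 3.11.15 with scipy 1.17.1 was used otherwise.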

Additional observations from a re-analysis of the deposited data

How the results depend on the processing

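None of the 33 sites and none of the 10 genes was called under any of these settings: a pseudocount of 8, only sites at or above the median value, equal library totals, quantile normalization, centring on the chromosome median, no intensity trend, each library left out, and only sites within 3 kb of a start. No member window was under the domain cutoff with 15, 25 or 51 sites or with a library left out. The alternatives for the 56 other genes were chosen after seeing the data, and none of those genes was called under them. No paired analysis was possible because the line titles of WT and KO share only 1 number, 643, and what it marks was not stated. Over the whole table the 307 called sites (249 lower in KO) became 537 (476 lower) without the intensity trend, 115 (76 lower) at the stronger sites, and 36 to 612 with a library left out, with 20 of 71 lower without WT replicate 1, 14 of 36 without WT replicate 2 and 548 of 612 without KO replicate 2. The KO libraries are the shallower ones, which limits what can be seen at sites of few counts.

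The counts of sites without overlap moved. Sites with both KO libraries above both WT libraries went from 5 to 2 with equal totals, 3 with quantile normalization, 9 with chromosome centring and 9 to 13 with a library left out. Sites with both below went from 4 to 2 at the stronger sites, 0 within 3 kb of a start and 6 to 11 with a library left out. With fewer libraries the genotypes overlap less by construction, and with fewer sites there are fewer to count. The cause of the other shifts was not tested.

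Small values changed sign with the scaling. The median over the 33 sites was -0.0333 with equal totals and -0.0564 with quantile normalization, and ran from -0.0623 to 0.0908 with a library left out. The median over genes was -0.0117 with equal totals and -0.075 with quantile normalization, where 24 of the 56 other genes were above 0. With equal totals, promoter values were -0.0171 at Slc25a1 and -0.0036 at Crat, and other sites were -0.0368 (downstream of Slc25a1) and -0.0333 (first start of Acaca). With quantile normalization, promoter values were -0.0797 at Pdhb, -0.0564 at Slc25a1, -0.0824 at Acly, -0.0443 at Acss2, -0.0875 at Crat and -0.1014 at Acaca, and those other sites were -0.0853 and -0.0447. With chromosome centring the Cs intronic site was 0.0161. Per gene, equal totals gave -0.0262 for Slc25a1, -0.0587 for Crat and -0.0472 for Acaca, and quantile normalization gave -0.0797 for Pdhb, -0.0702 for Slc25a1, -0.0407 for Acss2, -0.1242 for Crat and -0.1008 for Acaca.

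With 1 library left out, where the lone line of a genotype is assumed to vary like the others, promoter values that changed sign ran from -0.1074 to 0.3253 (Pdhb), -0.1899 to 0.075 (Dlat), -0.9344 to 0.085 (Acss1), -0.0573 to 0.1595 (Slc25a1) and -0.0199 to 0.1786 (Acly). Other sites ran from -0.2247 to 0.1997 (Cs intron), -0.1825 to 0.2454 (downstream of Slc25a1), -1.0986 to 0.8719 (Acly intron) and -0.0991 to 0.1689 (first start of Acaca). Per gene the ranges were -0.1074 to 0.3253 (Pdhb), -0.2382 to 0.1163 (Dlat), -0.7459 to 0.1394 (Acss1), -0.1195 to 0.2039 (Slc25a1), -0.0122 to 0.0316 (Crat) and -0.0104 to 0.0529 (Acaca).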
